A study of Mus musculus with 6 samples.

Results

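Nlrp5-ps, Serpinb2 and Grm7 were 3 of the 17512 genes counted by RNA-seq in primary mouse embryonic fibroblasts, and reads from them were nearly absent in every line labelled HAT1 KO. They were chosen on these counts: each held 3 counts or fewer in all 3 HAT1 KO lines and 20 or more in all 3 HAT1 WT lines. The difference between genotypes in these 3 genes is therefore a description and carries no test. HAT1 is the histone acetyltransferase that acetylates newly made histone H4. The lines were HAT1 WT 36, 47 and 78 and HAT1 KO 33, 41 and 72, and the question was how loss of the enzyme relates to transcription.

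All 6 lines were primary fibroblasts on a C57bl6 strain background, grown from whole embryos of mid gestation after the internal organs had been removed, in DMEM with fetal bovine serum and antibiotics. Each line was sequenced once, so a value for a line has no technical error of its own, and the lines were the replicates. Such cultures can hold other cells of the embryo beside fibroblasts. In bulk RNA, fewer cells of a type and less RNA per cell cannot be told apart. Lane 8 carried WT line 36, lane 6 carried WT line 47 and KO lines 33 and 72, and lane 7 carried WT line 78 and KO line 41.

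The 3 genes belong to unrelated families. Nlrp5-ps is a transcribed pseudogene named for Nlrp5, the maternal effect gene of oocytes also known as Mater, which is a member of the NLR family of proteins that sense microbes and danger signals and, in some members, assemble inflammasomes. Serpinb2, also called plasminogen activator inhibitor 2, is an intracellular and secreted clade B serpin that blocks the urokinase and tissue plasminogen activators and is best known from activated macrophages and keratinocytes. Grm7 encodes a metabotropic glutamate receptor of presynaptic terminals, which lowers cyclic AMP through inhibitory G proteins and is known for its role in neurons.

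The position of each gene was taken from GENCODE M21 on the GRCm38 mouse assembly. Nlrp5-ps (ENSMUSG00000041596) lies at chr7:14530652-14622479 on the minus strand, is annotated as a transcribed unprocessed pseudogene, and has 14 exon blocks of 4335 bases in all. Serpinb2 (ENSMUSG00000062345) lies at chr1:107511423-107535478 on the plus strand and is a protein-coding gene with 12 exon blocks of 2349 bases. Grm7 (ENSMUSG00000056755) lies at chr6:110645581-111567230 on the plus strand, spans 921650 bases and has 14 exon blocks of 5886 bases. The 3 genes are thus on different chromosomes.

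Nlrp5-ps still carries stretches that are close to identical to Nlrp5, and this bears on which gene its reads came from. In the longest ungapped alignment of the GENCODE transcripts, 517 bases of Nlrp5-ps-203 matched Nlrp5-201 at 97.9% identity with 11 mismatches, and the longest identical run was 171 bases. A stretch of 120 bases from both transcripts is shown because it holds 6 of the differing bases, which are in capitals. The stretch of Nlrp5-ps covers positions 762 to 881 of its transcript, in exons 7 and 8, within chr7:14581071-14583077 on the minus strand. The stretch of Nlrp5 covers positions 2839 to 2958, in exons 13 and 14, within chr7:23433707-23435780 on the plus strand.
Nlrp5-ps: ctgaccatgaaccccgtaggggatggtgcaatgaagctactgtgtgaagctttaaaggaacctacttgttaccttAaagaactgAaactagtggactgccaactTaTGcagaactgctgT
Nlrp5: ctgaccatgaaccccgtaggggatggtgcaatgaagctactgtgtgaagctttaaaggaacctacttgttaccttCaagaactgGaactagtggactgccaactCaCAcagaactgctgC
Of the 4374 different runs of 50 bases in the Nlrp5-ps transcripts, 46.6% also occurred in transcripts of another gene. The largest share, 1665 runs or 38.1%, was held in common with Vmn1r90, a vomeronasal receptor gene that overlaps Nlrp5-ps on the same strand, and 315 runs or 7.20% with Nlrp5. Neither Vmn1r90 nor Nlrp5 was among the 17512 genes with counts. Reads from the shared stretches cannot be told apart by sequence, so the counts of Nlrp5-ps are uncertain to that extent. In Serpinb2, 10.4% of the runs of 50 bases were shared, all 243 of them with the overlapping Serpinb10, which was not among the genes with counts. In Grm7 the share was 1.37%, all with Gm20387, an antisense gene at its 5′ end. It was not among the genes with counts, and the library kit does not mark strand.

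The sequence just before the start of transcription is shown for Serpinb2, for Grm7 and for Serpinb8, the neighbour of Serpinb2 that was also low in HAT1 KO. Each is the 250 bases upstream of the RefSeq start on GRCm38.p6, on the plus strand, and capitals mark matches to the motifs searched. These were the TATA box TATAAA, the AP-1 type motif TGANTCA, the cyclic AMP response core TGACGT, the GC box GGGCGG, the CCAAT box and the E box CACGTG, on both strands. The windows are chr1:107511173-107511422 for Serpinb2, chr1:107589756-107590005 for Serpinb8 and chr6:110645262-110645511 for Grm7.
Serpinb2: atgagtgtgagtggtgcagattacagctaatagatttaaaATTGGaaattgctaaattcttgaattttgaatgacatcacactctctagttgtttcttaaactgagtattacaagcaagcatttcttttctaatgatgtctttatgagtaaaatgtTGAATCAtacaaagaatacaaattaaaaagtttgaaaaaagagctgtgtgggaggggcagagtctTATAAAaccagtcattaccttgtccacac
Serpinb8: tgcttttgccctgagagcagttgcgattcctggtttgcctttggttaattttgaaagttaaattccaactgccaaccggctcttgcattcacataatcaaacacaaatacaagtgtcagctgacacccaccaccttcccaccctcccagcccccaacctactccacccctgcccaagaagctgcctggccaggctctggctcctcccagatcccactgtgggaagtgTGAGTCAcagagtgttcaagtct
Grm7: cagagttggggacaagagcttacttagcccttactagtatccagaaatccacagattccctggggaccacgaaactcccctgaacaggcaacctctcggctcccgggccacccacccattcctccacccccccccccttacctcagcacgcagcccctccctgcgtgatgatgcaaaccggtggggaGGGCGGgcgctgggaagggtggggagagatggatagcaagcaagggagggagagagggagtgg
The Serpinb2 window held TATAAA at -29 to -24 from the start, TGANTCA at -94 to -88 and CCAAT on the minus strand at -210 to -206. The Serpinb8 window held TGANTCA at -23 to -17, and the Grm7 window held GGGCGG at -63 to -58. Of 32851 promoter windows of the same length, 12.4% held TATAAA, 6.75% held TGANTCA, 32.7% held GGGCGG and 33.9% held CCAAT. Base composition differed between the windows. The G and C content was 32.4% for Serpinb2, 52.0% for Serpinb8 and 62.0% for Grm7, against a median of 52.4% over all windows. The ratio of observed to expected CpG was 0.0 for Serpinb2, 0.128 for Serpinb8 and 0.333 for Grm7, with a median of 0.374 over all windows. The 3 windows thus had no motif of the search in common, while both serpin windows held TGANTCA. A match describes the letters only, and no window was given for Nlrp5-ps.

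Nlrp5-ps was the most abundant of the 3 genes in HAT1 WT and the most even between lines. Its raw counts were 272, 305 and 335 in WT lines 36, 47 and 78, and 2, 2 and 0 in KO lines 33, 41 and 72. The normalised level in CPM (counts relative to the TMM-scaled library size) was 3.59 ± 0.202 in HAT1 WT and 0.0173 ± 0.0154 in HAT1 KO (SD, n = 3 lines each). The lowest WT line held 272 counts and the highest KO line held 2, and the lack of overlap was fixed by the choice of the gene. The WT lines differed by a factor of 1.12 from lowest to highest. Their SD was 5.61% of the mean, and counting error of independent reads alone would give 5.75%. Summed over lines and scaled for depth, HAT1 WT exceeded HAT1 KO by a ratio of 209, with a 95% exact interval of 81.4 to 769 that covers counting error only.

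Serpinb2 differed more between the WT lines. Its raw counts were 62, 44 and 142 in WT lines 36, 47 and 78, and 0, 2 and 2 in KO lines 33, 41 and 72. WT line 78 was the highest, 2.63 times WT line 47 in CPM. The level was 0.935 ± 0.455 CPM in HAT1 WT and 0.0185 ± 0.0161 CPM in HAT1 KO (SD, n = 3 lines each). The SD of the WT lines was 48.7% of their mean, and counting error alone would give 12.1% if each count were an independent read. The ratio of HAT1 WT to HAT1 KO was 56.9, from 248 counts against 4, with an interval of 21.9 to 210.4, and it was 35.2 without KO line 33.

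Grm7 was the least abundant of the 3 genes in HAT1 WT. Its raw counts were 57, 48 and 25 in WT lines 36, 47 and 78, and 0, 1 and 0 in KO lines 33, 41 and 72. WT line 78, the highest for Serpinb2, was the lowest for Grm7, and WT line 36 was 2.99 times WT line 78 in CPM. The level was 0.535 ± 0.257 CPM in HAT1 WT and 0.00493 ± 0.00854 CPM in HAT1 KO (SD, n = 3 lines each). The SD of the WT lines was 48.1% of the mean, and counting error of independent reads alone would give 15.9%. The ratio was 119, from 130 counts against 1, with an interval of 21 to 4746. A single read in KO line 41 thus set the size of this ratio, and without that line it was only bounded, at 28.3 or more, since 3 counts is taken as the limit that a count of 0 allows.

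**Figure D1:**
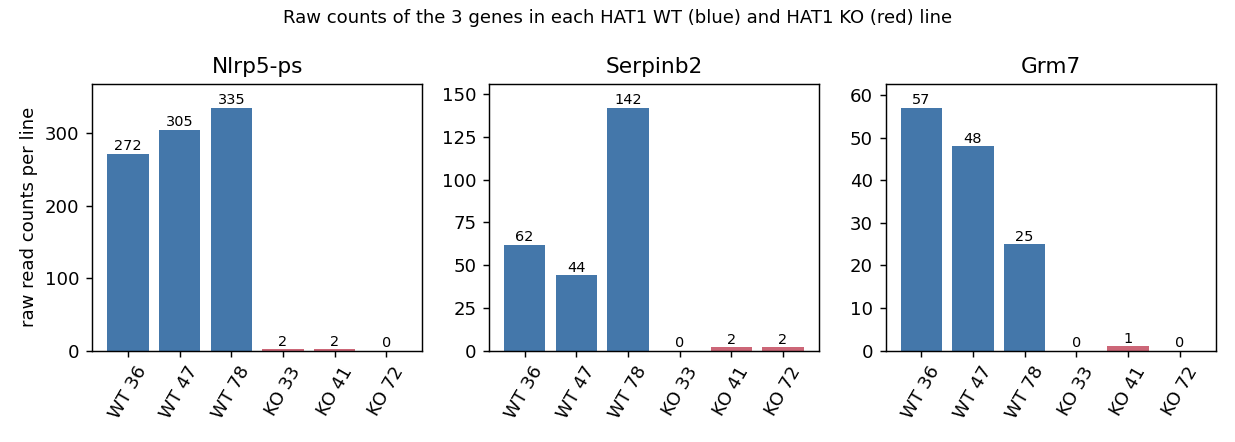
Bars give the raw read count (y axis, linear from 0, a separate scale for each gene) of each line (x axis), with HAT1 WT lines in blue and HAT1 KO lines in red, and the count is printed over each bar. The WT lines hold 272 to 335 counts of Nlrp5-ps, 44 to 142 of Serpinb2 and 25 to 57 of Grm7, while no KO line holds more than 2 counts of any of the 3 genes.

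All 3 genes were rare transcripts even in HAT1 WT. Per kilobase of exon, the HAT1 WT level was 0.829 CPM for Nlrp5-ps, 0.398 CPM for Serpinb2 and 0.0909 CPM for Grm7. The WT mean CPM of Nlrp5-ps exceeded that of 38.1% of the 17512 genes, that of Serpinb2 exceeded 28.9% and that of Grm7 exceeded 25.9%. In HAT1 KO the mean CPM was 0.483% of the WT mean for Nlrp5-ps, 1.98% for Serpinb2 and 0.922% for Grm7. The 9 KO values of the 3 genes added up to 9 reads out of 234173059, and 4 of the values were 0, 4 were 2 and 1 was 1. Among all counts from 1 to 10 in the table, 75.1% were even, against 55.0% of counts above 100 and up to 1000, so single reads may have been counted in pairs. All counts were then halved and rounded up, which left the single KO read of Grm7 at 1. The interval of the ratio became 57.7 to 1736 for Nlrp5-ps, 15.4 to 475 for Serpinb2 and 10.5 to 2427 for Grm7. These intervals cover counting error only, not the spread between lines. Since the genes were chosen for few KO and many WT counts, high lower ends follow in part from that choice.

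The thresholds of 3 and 20 counts were met by 7 genes, which is 0.04% of the 17512, and the mirror pattern of low WT and high KO counts was met by 0. The other 4 were 3830403N18Rik on the X chromosome and the Y-linked genes Kdm5d, Eif2s3y and Uty. The X-linked 3830403N18Rik held 22, 26 and 20 counts in HAT1 WT and 0 in each KO line, so HAT1 WT was at least 20.8-fold higher. Uty held 2316, 2302 and 46 counts in WT lines 36, 47 and 78, and 0 in each KO line. Kdm5d and Eif2s3y followed the same order, with 34 and 25 counts in WT line 78. The Y-linked genes were therefore low in WT line 78 as well as in the KO lines.

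Among the 3 genes described here, Grm7 had the same order of lines, with WT line 36 highest and WT line 78 lowest of the WT lines, while Nlrp5-ps and Serpinb2 did not. Summed over Kdm5d, Uty, Eif2s3y and Ddx3y, the 4 Y-linked genes measured, WT line 78 had 231 counts against 12841 and 13788 in the other WT lines and 6, 8 and 4 in KO lines 33, 41 and 72, and Xist, the transcript of the inactive X chromosome, had 29520 counts there, against 11233 to 13722 in the KO lines. WT line 78 was thus nearer to the KO lines than to the other WT lines in sex-linked expression, though above the KO lines in both the Y-linked sum and Xist. In this line Nlrp5-ps held 335 counts and Serpinb2 held 142, the highest raw counts of both genes, and Grm7 held 25, its lowest WT value. Scaled for depth, Nlrp5-ps in this line was at 3.39 CPM, against 3.61 and 3.79 CPM in WT lines 36 and 47. Set against WT line 78 alone, the KO lines gave a ratio of 59.1 for Grm7.

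Genes just outside the thresholds showed how sharp the selection was. H2-M9, a nonclassical MHC class I gene, held 58, 44 and 22 counts in HAT1 WT and 0, 4 and 0 in HAT1 KO. Xlr3b, an X-linked lymphocyte-regulated gene, held 123, 80 and 22 against 6, 0 and 0. Edaradd, the adaptor of the ectodysplasin receptor, held 20, 23 and 26 against 6, 4 and 6. These 3 missed the KO threshold by a few reads. On the WT side, Alk, a receptor tyrosine kinase, held 27, 46 and 16 counts against 0, 2 and 0. A2m, a protease trap related to complement proteins, held 32, 20 and 14 against 2, 2 and 0, and Gal3st3, a sulfotransferase, held 12, 14 and 14 against 2, 3 and 2. The number of genes passing was 10 with a KO limit of 6 counts and 20 with a limit of 10. With a WT minimum of 40 counts it was 3, and Nlrp5-ps and Serpinb2 were among them. Grm7 lay nearest to the limit of the 3 genes. After scaling to the median library its lowest WT value was 19.9, and it no longer met the threshold. With all counts halved its lowest WT value was 12.5, and it did not meet the threshold either.

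**Figure D2:**
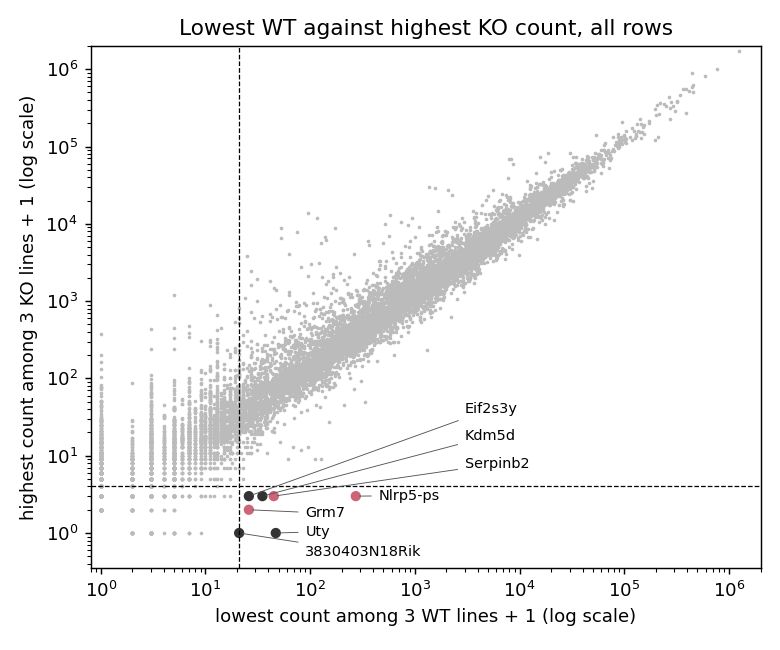
Each point is 1 of 17512 genes, placed by its lowest count among the 3 HAT1 WT lines (x axis, plus 1, log scale) and its highest count among the 3 HAT1 KO lines (y axis, plus 1, log scale), and dashed lines mark 20 and 3 counts. The 7 genes on or within both limits are labelled, Nlrp5-ps, Serpinb2 and Grm7 in red and the other 4 in black, and Nlrp5-ps stands apart with 272 counts in its lowest WT line.

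Lane was not balanced between the genotypes, and lane 8 held WT line 36 alone. The counts are given by lane as a description. In lane 6, WT line 47 held 305 counts of Nlrp5-ps, 44 of Serpinb2 and 48 of Grm7, while KO lines 33 and 72 together held 2, 2 and 0. In lane 7, WT line 78 held 335, 142 and 25 counts, while KO line 41 held 2, 2 and 1. Since the genes were chosen for high counts in every WT line and low counts in every KO line, their direction within a lane was fixed by the choice. The scaled ratio of Nlrp5-ps was 315 in lane 6 and 114 in lane 7. For Grm7 the ratio was 17.1 in lane 7, and in lane 6, where the KO lines held 0 counts, it was at least 33.

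Facts of the whole series set the frame for the relatives of these genes. Total counts were 67720628 to 98786746 per library. Hat1 itself had 1316, 1855 and 1989 counts in HAT1 WT and 910, 678 and 796 in HAT1 KO, a level of 50.4% of WT, so its reads persisted in the KO libraries. Of 14773 genes tested across the table with edgeR, 0.528% (78 genes) were lower in HAT1 KO at an adjusted p-value under 0.05 and 0.0% were higher. DESeq2 called 643 lower at an adjusted p-value, and its number higher was not counted. At an unadjusted p-value under 0.05 the shares in edgeR were 8.77% lower and 5.88% higher, while DESeq2 gave 1335 genes lower and 1107 higher. All genes tested in edgeR had a median log2 fold change of 0.0085. The p-values measure the spread between these lines. Fibroblast markers had a summed level of 46360 to 78365 CPM over 10 genes. Col1a1 alone gave 25022 to 43872 CPM of it, while S100a4 was at 3.39 to 11.2 CPM. In edgeR 0 of the 10 passed the adjusted threshold. At an unadjusted p under 0.05, 1 was lower, beside 8.77% of all genes, and 0 higher, beside 5.88%. The lower gene was Thy1, with a log2 fold change of -0.31 and an edgeR adjusted p of 0.305. With 3 lines against 3, an exact permutation test of a single gene could not give a p-value below 0.1.

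The NLR family was the closest context for Nlrp5-ps. Of 16 other members with counts, 15 were tested. At an adjusted p-value under 0.05 in edgeR, 2 of them fell and 0 rose, beside 0.528% and 0.0% of all genes. At an unadjusted p-value under 0.05, 7 were lower and 0 higher, beside 8.77% and 5.88% over all genes, and the median log2 fold change was -0.61. The lines of the genotypes did not overlap, with KO below WT, in 8 of the 15, beside 12.4% of all genes tested, and with KO above WT in 0, beside 9.59%.

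The 2 that fell in edgeR work together. Nlrc4, which builds the inflammasome that answers bacterial flagellin and secretion systems, held 624, 616 and 788 counts in HAT1 WT and 291, 243 and 237 in HAT1 KO. All KO lines were below all WT lines, with a log2 fold change of -1.27 (SE 0.12) and an edgeR adjusted p of 0.0353. Naip2, a sensor that binds bacterial rod proteins and recruits Nlrc4, held 1336, 1392 and 1703 counts against 1025, 740 and 841. Its log2 fold change was -0.65 (SE 0.08), with an edgeR adjusted p of 0.0363. Both calls depended on the setting. Over 13 alternatives the adjusted p ranged from 4.55e-16 to 0.67 for Nlrc4, under 0.05 in 6, and from 4.13e-10 to 0.67 for Naip2, under 0.05 in 4.

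In edgeR, other NLR genes passed the unadjusted threshold only, while DESeq2 put Naip5 (adjusted p = 0.0003) and Naip6 (adjusted p = 0.0181) past the adjusted one. The flagellin sensors Naip5 and Naip6 had log2 fold changes of -0.83 (edgeR adjusted p = 0.103) and -0.62 (edgeR adjusted p = 0.174). Nlrc3, a regulator of innate signalling, had -0.47, Nlrp1a, an inflammasome sensor, had -0.69, and the pseudogene Nlrp1c-ps had -0.86. Nlrp1c-ps, the other pseudogene of the list, was still read in every KO line, with 64, 54 and 49 counts against 80, 99 and 159 in the WT lines. The most abundant member per kilobase was Nlrx1, a mitochondrial member of the family, at 3.66 CPM per kilobase in HAT1 WT, with a log2 fold change of -0.12 and an edgeR adjusted p of 0.653. Nod1, a sensor of bacterial peptidoglycan, had a log2 fold change of 0.0076, and Nlrp3, the sensor of the best known inflammasome, had -0.34, and neither passed. Among the tested relatives the lowest KO level as a share of WT was that of Nlrc4, at 41.6%, while Nlrp5-ps was at 0.483%.

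Genes downstream of NLR sensors were counted in the same way. Of 14 inflammasome and NLR signalling genes, 1 fell at an adjusted p under 0.05 in edgeR, beside 0.528% of all genes. At an unadjusted p 5 were lower, beside 8.77%, and 0 higher, beside 5.88%, with a median log2 fold change of -0.33. Casp1, the protease that cuts interleukin 1 beta, held 579, 720 and 806 counts in HAT1 WT and 381, 281 and 260 in HAT1 KO. Its log2 fold change was -1.07 (SE 0.15), with an edgeR adjusted p of 0.0496 that was under 0.05 in 3 of 13 alternatives (8.89e-08 to 0.67). Il1b, the cytokine itself, held 69, 74 and 92 counts against 30, 12 and 10, with a log2 fold change of -2.08 and an edgeR adjusted p of 0.106. DESeq2 gave Il1b an adjusted p of 0.00182. Card9, Casp4 and Pycard, an adaptor, a caspase and the inflammasome adaptor Asc, had log2 fold changes of -0.63, -0.78 and -0.54. The adjusted p of Card9 was under 0.05 in 1 of 13 alternatives, at 0.00454.

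Few partners of the Nlrp5 protein in the egg were measured. Of 8 genes of the maternal complex list, 4 had counts and 2 were tested with edgeR, and 0 passed in either direction, adjusted or not. Tle6 held 444, 377 and 493 counts in HAT1 WT and 378, 325 and 448 in HAT1 KO, and Zbed3 held 1802, 2102 and 2250 against 2963, 1969 and 1654. Ooep and Padi6 were near 0, with 18 counts in KO line 72 the highest value of either. Oocyte and germ cell markers had a summed level over 5 genes of 0.621 to 1.15 CPM in HAT1 WT and 0.977 to 4.87 CPM in HAT1 KO. The highest sum was that of KO line 72, where Ddx4 alone held 336 counts or 4.36 CPM. Ddx4 held 10 counts in each of KO lines 33 and 41, and 4, 7 and 28 in the WT lines. Of the 3 markers tested, 0 passed.

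Serpinb2 sits in a cluster of clade B serpin genes on chromosome 1, and its nearest measured neighbour was also low in HAT1 KO. Serpinb8, an intracellular inhibitor of furin-like proteases, lies at chr1:107590006-107610484, 54.5 kb beyond the end of Serpinb2 on the same strand. Its raw counts were 1296, 1408 and 1796 in HAT1 WT and 104, 120 and 234 in HAT1 KO. The level was 17.6 ± 0.495 CPM in HAT1 WT and 1.99 ± 0.951 CPM in HAT1 KO (SD, n = 3 lines each), or 11.3% of WT. Its log2 fold change was -3.14 (SE 0.35) at an edgeR adjusted p of 0.0357. Under the alternatives the log2 fold change stayed between -3.58 and -2.87, while the adjusted p ranged from 8.09e-18 to 0.67 and was under 0.05 in 6 of 13. It rose above 0.05 without WT line 36, 47 or 78 or KO line 33 or 41 (adjusted p of 0.182, 0.231, 0.123, 0.0942 and 0.0982 from edgeR) and was 0.0226 without KO line 72.

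The other measured genes of this region gave smaller or untested differences. On the other side of Serpinb2, Serpinb7, a clade B serpin of skin, held 6, 4 and 2 counts in HAT1 WT and 0 in each KO line, so the lines did not overlap, but the counts were too few to test. Serpinb12, further along, held 2, 13 and 45 counts against 9, 2 and 12, and the lines overlapped. Vps4b, an ATPase of membrane remodelling, held 7236, 7280 and 9865 counts against 7318, 5939 and 6302, with a log2 fold change of -0.18 and an edgeR adjusted p of 0.288. Bcl2, an inhibitor of apoptosis, and Kdsr, an enzyme of ceramide synthesis, had log2 fold changes of -0.17 and 0.14 and did not pass. Of 6 neighbours within 1 Mb, 5 were tested, and at an unadjusted p under 0.05 2 were lower, Serpinb8 and Vps4b, beside 8.77% of all genes, with 0 higher, beside 5.88%.

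**Figure D3:**
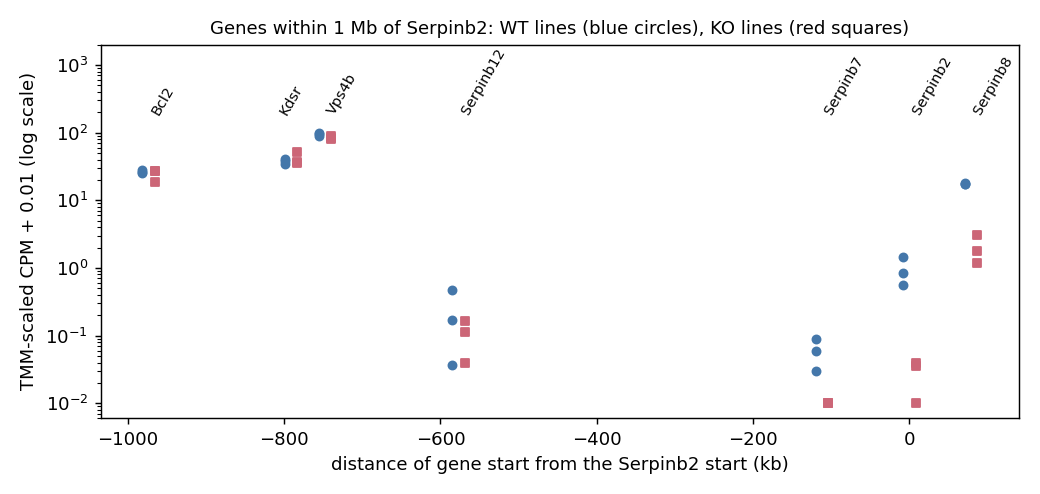
Points give the level of each line (y axis, CPM plus 0.01, log scale) for Serpinb2 and the 6 measured genes within 1 Mb of it, placed by the distance of the start of the gene from the start of Serpinb2 (x axis, kb), with HAT1 WT lines as blue circles and HAT1 KO lines as red squares. The genotypes stand well apart at Serpinb2 and at Serpinb8 beside it, with KO means of 1.98% and 11.3% of WT, while at Bcl2, Kdsr and Serpinb12 the lines overlap.

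Among the other clade B serpins, 9 were tested, and 1 of them (Serpinb8) fell at an adjusted p under 0.05 in edgeR, beside 0.528% of all genes. At an unadjusted p 3 were lower, beside 8.77%, and 0 were higher, beside 5.88%. The median log2 fold change was -0.61. Serpinb6b, from the serpin cluster on chromosome 13, held 390, 384 and 631 counts in HAT1 WT and 88, 124 and 220 in HAT1 KO, with a log2 fold change of -1.52 (SE 0.39) and an edgeR adjusted p of 0.177. Serpinb1b, a relative of the neutrophil elastase inhibitor, held 24, 22 and 23 counts against 8, 4 and 8, with a log2 fold change of -1.68 and an edgeR adjusted p of 0.146. The most abundant clade B serpin per kilobase, Serpinb6a at 40 CPM per kilobase in HAT1 WT, had 216 ± 22.4 CPM in HAT1 WT and 198 ± 34.2 CPM in HAT1 KO (SD, n = 3 lines each), and the lines overlapped. Serpinb9, the granzyme B inhibitor, had a log2 fold change of -0.37 with an edgeR adjusted p of 0.692. Serpinb1a, Serpinb9b and Serpinb1c overlapped between the genotypes as well.

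Over all clades, 32 serpins other than Serpinb2 had counts and 22 were tested. At an adjusted p under 0.05 in edgeR, 1 fell, again Serpinb8, beside 0.528% of all genes. At an unadjusted p 4 were lower, beside 8.77% of all genes, and 0 higher, beside 5.88%, with a median log2 fold change of -0.27. The fourth was Serpini1, neuroserpin, an inhibitor of tissue plasminogen activator, with 100, 90 and 142 counts against 58, 38 and 32 and an edgeR adjusted p of 0.132. Serpinh1, the abundant collagen chaperone of fibroblasts, had a mean of 1865 CPM in HAT1 WT and 2184 CPM in HAT1 KO and did not pass.

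The protease targets of Serpinb2 did not pass the adjusted threshold in edgeR. Of 20 genes of plasminogen activation, 19 had counts and 17 were tested. At an unadjusted p under 0.05, 5 were lower, beside 8.77% of all genes, and 0 higher, beside 5.88%. In edgeR the only one past the adjusted threshold was Serpinb8, beside 0.528% of all genes. Serpinb8 and Serpini1 are on this list and among the serpins, so their calls are the same ones counted again. DESeq2 also put Lrp1 (adjusted p = 0.00814) and Serpini1 (adjusted p = 0.00953) past it. Plau, the urokinase that Serpinb2 inhibits, had a log2 fold change of 0.08, and its receptor Plaur had 0.29, and neither passed. Plat, the tissue activator, had 8682, 8167 and 13238 counts in HAT1 WT and 8504, 6966 and 6591 in HAT1 KO, with a log2 fold change of -0.30 and an edgeR adjusted p of 0.332. Lrp1, a clearance receptor for protease and inhibitor complexes, had -0.37, and Hgf, a growth factor related to plasminogen, had -0.33, both past the unadjusted threshold only. The median log2 fold change of the list was -0.09.

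Grm7 had almost no measured company among its closest relatives. Grm8 and Grm4, metabotropic receptors of the same group as Grm7, were too low to test. Grm8 held 2, 6 and 8 counts in HAT1 WT and 6, 2 and 2 in HAT1 KO. Grm4 held 12, 2 and 6 counts in HAT1 WT and 2, 6 and 10 in HAT1 KO. In both genes the lines of the genotypes overlapped, and each had fewer counts than Grm7 in every WT line.

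Of 20 other glutamate receptor genes with counts, 11 were tested, and 0 passed the adjusted threshold in either direction in edgeR, while DESeq2 put Grin3a past it (adjusted p = 0.00276). At an unadjusted p under 0.05 in edgeR, 2 were lower, beside 8.77% of all genes, and 0 higher, beside 5.88%, and the median log2 fold change was -0.63. Grin3a, a subunit of NMDA receptors, held 380, 360 and 165 counts in HAT1 WT and 26, 76 and 18 in HAT1 KO. Like Grm7 it was lowest in WT line 78 among the WT lines. Its log2 fold change was -2.77 (SE 0.74) with an edgeR adjusted p of 0.193, and against WT line 78 alone it was -1.59. Grin1, the obligatory NMDA subunit, held 32, 52 and 40 counts against 25, 21 and 19, with an edgeR adjusted p of 0.330. Gria3, an AMPA receptor subunit and the most abundant of the family at 7.0 CPM per kilobase in HAT1 WT, had a log2 fold change of -0.43 and an edgeR adjusted p of 0.349. Grik5, a kainate receptor subunit, had a log2 fold change of 0.55 and an edgeR adjusted p of 0.368.

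**Figure D4:**
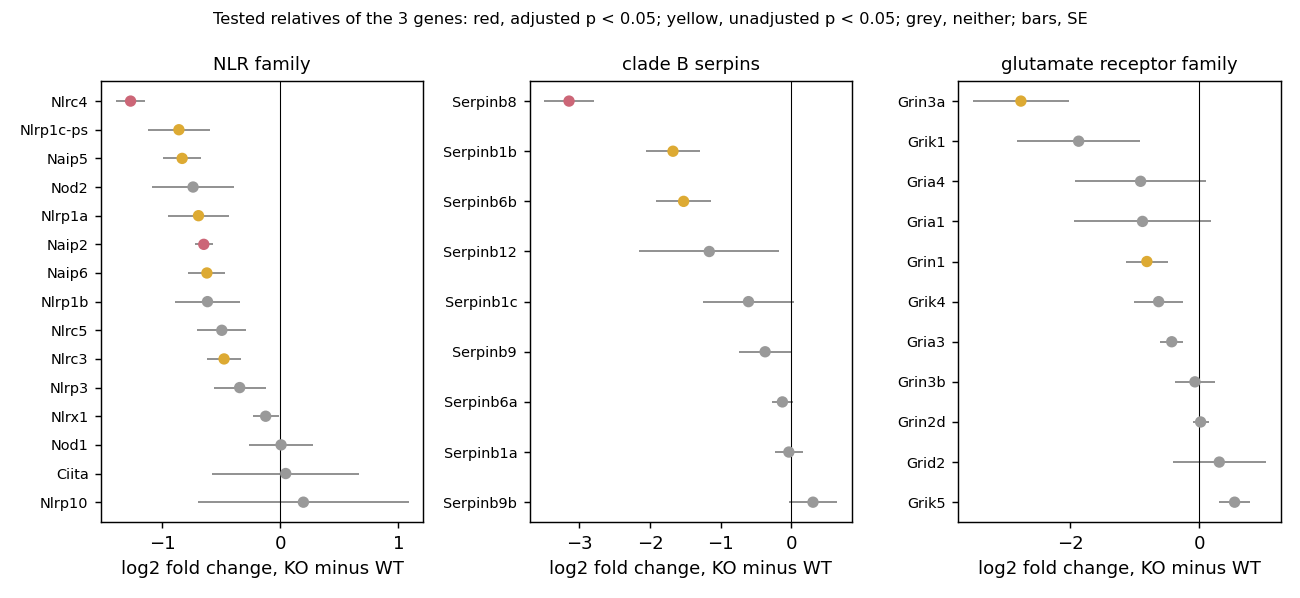
Points give the log2 fold change of HAT1 KO minus HAT1 WT (x axis) for the tested relatives of Nlrp5-ps (NLR family), Serpinb2 (clade B serpins) and Grm7 (glutamate receptor family), 1 gene per line of the y axis, with bars of 1 SE. Red points passed an adjusted p of 0.05 in edgeR (Nlrc4, Naip2 and Serpinb8), yellow points passed only unadjusted, and grey points passed neither.

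No signalling partner of metabotropic glutamate receptors passed the adjusted threshold in edgeR, while DESeq2 put Adcy3 (adjusted p = 1.8e-05) and Adcy9 (adjusted p = 0.00174) past it. Of 20 genes, 19 were tested with edgeR, and 3 were lower, beside 8.77% of all genes, and 0 higher, beside 5.88%, at an unadjusted p under 0.05, with a median log2 fold change of -0.05. The adenylyl cyclases Adcy3 and Adcy9, which make the cyclic AMP that Grm7 signalling lowers, had log2 fold changes of -0.48 (edgeR adjusted p = 0.0626) and -0.38 (edgeR adjusted p = 0.119). Slc1a2, a glutamate transporter, had -0.84 with an edgeR adjusted p of 0.339. Gnai2, the inhibitory G protein subunit with the highest level of the list, had a mean of 578 CPM in HAT1 WT and 595 CPM in HAT1 KO.

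The neighbourhoods of the other 2 genes held few measured genes. Within 1 Mb of Grm7 there were 3. At an unadjusted p under 0.05 in edgeR, 1 was higher, beside 5.88% of all genes, and 0 were lower, beside 8.77%. Oxtr, the oxytocin receptor, held 12, 9 and 10 counts in HAT1 WT and 16, 39 and 20 in HAT1 KO, with a log2 fold change of 1.44 (SE 0.54) and an edgeR adjusted p of 0.309. Lmcd1 and Cav3, a transcriptional cofactor and a muscle caveolin, overlapped between the genotypes. Within 1 Mb of Nlrp5-ps there were 0 other genes with counts.

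Macrophage markers were also lower in HAT1 KO, and macrophages are cells known to make Serpinb2 and the NLR inflammasome genes. Of 12 macrophage markers, 8 fell at an adjusted p under 0.05 in edgeR, beside 0.528% of all genes, and 11 were lower at an unadjusted p, beside 8.77%, and the median log2 fold change was -0.80. No marker of the list was at 0 in any line. The list summed to between 5663 and 6144 CPM in HAT1 WT and to between 2805 and 3374 CPM in HAT1 KO. Lyz2, the lysozyme of myeloid cells, had a log2 fold change of -1.01, Csf1r, the receptor for the macrophage growth factor, had -0.74 and Cd53, a leukocyte tetraspanin, had -0.86, each with an edgeR adjusted p under 0.05. For each of these 3 the adjusted p was under 0.05 in 6 of 13 alternatives and reached 0.67 in the others. Cd14, a receptor for bacterial lipopolysaccharide, had -0.12 and did not pass. The 11 lower markers kept 49.8% to 63.4% of the WT level, while Serpinb2 kept 1.98%, Serpinb8 11.3%, Il1b 23.3%, Nlrc4 41.6%, Casp1 47.7%, Naip2 63.9% and Nlrp5-ps 0.483%. The part of macrophage content in these differences was not tested.

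**Figure D5:**
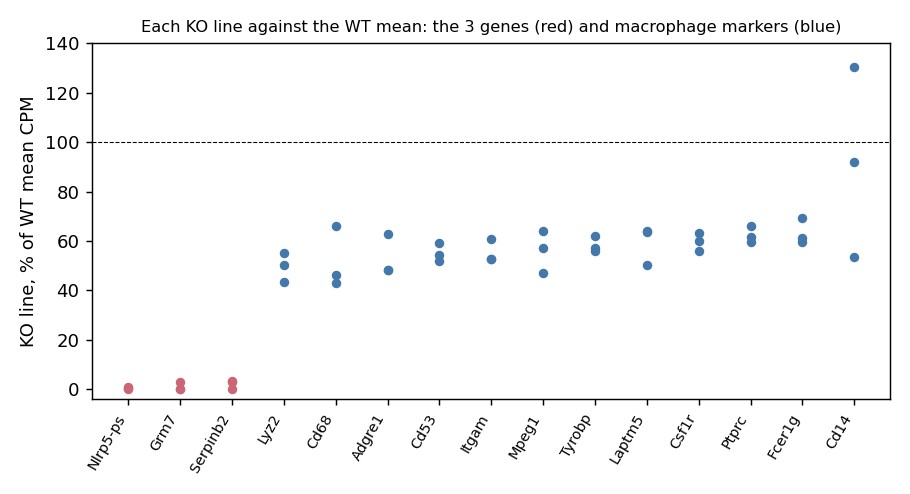
Each point is 1 HAT1 KO line, given as a percentage of the HAT1 WT mean CPM (y axis), for Nlrp5-ps, Grm7 and Serpinb2 in red and 12 macrophage markers in blue (x axis), with a dashed line at 100%. The 3 genes lie near 0 in every KO line, while 11 of the markers have means between 49.8% and 63.4% and Cd14 has a mean of 91.9%.

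Markers of other cell types that use these genes were low or uneven. Epithelial and keratinocyte markers summed to 1.91 to 2.83 CPM in the WT lines and 1.15 to 2.15 CPM in the KO lines over 7 genes, and 0 of the 3 tested passed in edgeR, adjusted or not. Krt18 and Krt8, the keratins of simple epithelia, held 100, 104 and 80 counts in HAT1 WT against 36, 24 and 0, and 2, 6 and 40 against 2, 0 and 0. The KO mean of Krt18 was 22.2% of WT, without overlap of the lines, at a log2 fold change of -2.16 and an edgeR adjusted p of 0.407, and Krt8 was too low to test. Cdh1, the cadherin of epithelia, held 28, 30 and 90 counts in HAT1 WT against 118, 42 and 158, with a log2 fold change of 1.27 and an edgeR adjusted p of 0.376. Krt5 and Krt14, the keratins of basal keratinocytes, were at 0 in WT line 47, and in 1 and 2 of the KO lines. Neuronal and glial markers summed to 60.5 to 77.4 CPM in the WT lines and 73.2 to 214 CPM in the KO lines. Of the 6 tested in edgeR, 1 was higher at an unadjusted p under 0.05, beside 5.88% of all genes, and 0 were lower, beside 8.77%. The higher gene was the neuronal tubulin Tubb3, with a log2 fold change of 0.44 and an edgeR adjusted p of 0.319. The summed ranges overlapped between the genotypes. The part of other cell types in the counts of the 3 genes was not tested.

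The genes whose pattern over the 6 lines was most like that of each gene were named by the Pearson correlation of log2(CPM + 0.05), as a description without a test. The points share their libraries and fall into 2 genotype groups, so a high value mainly records the same step between genotypes. For Nlrp5-ps the nearest were Nlrc4 (0.997), Xylt1, Synj1, Naip2 and Dennd1c (each 0.996). Nlrc4 and Naip2 are also NLR genes, and Dennd1c is an exchange factor for a Rab protein. For Serpinb2 the nearest were Pgm2l1 (0.998), Ptpra, Shtn1 and Znfx1, and Lrrc4c (0.994), which held 308, 209 and 433 counts in HAT1 WT and 44, 42 and 44 in HAT1 KO. For Grm7 they were Npc1, Ppm1h and Ehd4 (each 0.999), Faah (0.998) and Arhgef3 (0.997). The likeness between the genes themselves was 0.967 for Nlrp5-ps with Serpinb2, 0.970 for Nlrp5-ps with Grm7 and 0.906 for Serpinb2 with Grm7, of which WT line 78 was the highest WT line for Serpinb2 and the lowest for Grm7. Likeness in pattern was not likeness in size, since Nlrc4 kept 41.6% of its WT level in HAT1 KO and Nlrp5-ps 0.483%.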

How the data were processed

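Total RNA from 6 lines was made into libraries with a TruSeq kit, per the labels, which does not mark strand. The authors deposited raw read counts per gene for the 6 lines, without normalization. The submitters' processing notes name mm10 and edgeR; the aligner, counter and strand setting are not given in the sources used here. The deposited table also holds the authors' own comparison of the genotypes (log2 fold change, log2 CPM, F score, p-value and q-value), none of which was used. All 17512 genes matched GENCODE M21 by Ensembl identifier, and 0 count columns lacked a sample.

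Genotype differences were tested on the counts with edgeR 4.0.16 (R 4.3.3; filterByExpr, TMM, quasi-likelihood F test, two-sided), with Benjamini-Hochberg adjustment over 14773 genes, after the script had been tested on simulated data. Groups came from the genotype in the labels. The SE of a fold change is approximate. CPM were TMM-scaled. Ratios carry exact conditional 95% intervals, which cover counting error only. At 67720628 to 98786746 counts per library, 1 read is near the limit of these KO values. Transcripts were aligned with blastn 2.17.0, and promoter windows came from RefSeq. Alternatives were other scalings, DESeq2 1.42.0, other filters, lane as a covariate, single lanes, halved counts and each line left out. The members and lists were chosen with earlier results of these data known. The rule for naming took list members with 20 counts or more in all lines of a genotype that passed an unadjusted p of 0.05 or were among the most abundant. It also took the neighbours, the genes near the thresholds and the 5 most alike genes. Some list members outside this rule were named as well, such as Grm8, Grm4, Ooep, Padi6, Ddx4, S100a4, Cd14, Cdh1 and the keratins. Some members of the lists are counted but not reported here by name.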

Additional observations from a re-analysis of the deposited data

How the results depend on the processing

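The number of genes that met the thresholds was 7, and it was 4 after scaling to the median library, 3 with halved counts, 20 with a KO limit of 10 counts, 12 with a WT minimum of 10 counts, and 7 to 12 with a line left out (12 without KO line 33). The ratio of Nlrp5-ps, 209 with all lines, was 315 in lane 6, 114 in lane 7 and 140 to 297 with a line left out. That of Serpinb2 was 35.2 to 80.9 with a line left out. That of Grm7, 119 with all lines, was 60.5 with counts halved and rounded up, which left its single KO read at 1. The Grm7 ratio was at least 33 in lane 6, 17.1 in lane 7 and 59.1 against WT line 78 alone (chosen after seeing the data). With a line left out it was 28.3 to 157, where the lowest value, without KO line 41, is a bound.

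Over all genes the 78 lower at an adjusted p under 0.05 became 643 with DESeq2, 46 without a filter, 2 with the lane in the model and 0 against WT line 78 alone, where 597 were lower and 529 higher at an unadjusted p in edgeR. With a line left out they were 0 to 71: 0 without WT line 36, WT line 47 or KO line 33, where edgeR gave 985, 916 and 1214 lower at an unadjusted p, 4 without WT line 78 and 5 without KO line 41. The unadjusted counts of 1295 lower and 869 higher became 726 and 205 with the lane, and 916 to 1424 and 454 to 1362 with a line left out (454 without WT line 36, 467 without WT line 78, 1362 without KO line 72).

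Of the lists, counted at an unadjusted p, the serpins went from 4 to 7 without a filter. The glutamate receptors went from 2 to 1 without a filter, with a mean of 50 counts or with the lane, and to 0 against WT line 78 alone. With the lane and against WT line 78 alone, plasminogen genes went from 5 to 2 and 3, inflammasome genes from 5 to 3 and 2, and the neighbours of Serpinb2 from 2 to 1 and 1. With a line left out the ranges were NLR 5 to 8, serpins 4 to 5, glutamate receptors 1 to 3, plasminogen 4 to 6, inflammasome 3 to 5, metabotropic partners 2 to 3, neighbours of Serpinb2 1 to 2 and macrophage markers 11 to 11. The causes were not tested. For 42 named genes, 460 of 542 alternative values kept direction and side of an unadjusted p of 0.05, 73 lost it, 9 gained it and 0 reversed. No paired analysis was possible because the genotypes share no line numbers.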
